A study of Drosophila melanogaster with 9 samples.

Results

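Open chromatin at 8 heat shock protein genes of Drosophila melanogaster was examined in 9 ATAC-seq peak lists, 3 from each of 3 groups. The genes were Hsp22, Hsp23, Hsp26, Hsp27, Hsp67Ba, Hsp67Bc, Hsp68 and Hsp83, taken by name from 13968 protein-coding genes, and a gene's window was the gene plus 1000 bases on each side. ATAC-seq uses the Tn5 transposase to cut accessible DNA, so a peak marks a stretch that was cut more often than its surroundings. All libraries came from Kc167, a single female embryonic cell line with features of plasmatocytes, the phagocytic blood cells of the fly. The mock cells were transfected with no RNA, the M1BP knockdown cells received 20 µg of double-stranded RNA against M1BP and the Cp190 knockdown cells 12 µg against Cp190, and all were taken 5 days later. M1BP is a zinc finger factor that binds the core promoter element called Motif 1 at many paused genes, and Cp190 is a protein of insulator complexes. The amounts of RNA differed between the knockdowns and the mock cells received none, so an effect of double-stranded RNA as such cannot be told apart from an effect of the knockdown.

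Heat shock proteins are chaperones that hold or refold damaged proteins. Hsp22, Hsp23, Hsp26, Hsp27, Hsp67Ba and Hsp67Bc encode small heat shock proteins, which bind unfolded proteins without using ATP, Hsp68 encodes an inducible chaperone of the Hsp70 family and Hsp83 the fly Hsp90, which is abundant without heat. On heating, the factor Hsf binds inverted GAA repeats called heat shock elements upstream of these genes, and GAGA factor and paused RNA polymerase II are known to keep several of these promoters open before any heat. No group in the labels was heated, so the peaks describe the uninduced state.

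The 300 bases upstream of the starts of Hsp23, Hsp26, Hsp68 and Hsp27 are shown because the peaks described here lie over them. They were read from the RefSeq genome of the dm6 build in the direction of the gene, ending 1 base before the start, and no annotated exon overlaps any of them. Capitals mark pairs of heat shock repeats, TTCNNGAA or GAANNTTC, each of which reads the same on both strands.
Hsp23, chr3L:9381582-9381881, plus strand: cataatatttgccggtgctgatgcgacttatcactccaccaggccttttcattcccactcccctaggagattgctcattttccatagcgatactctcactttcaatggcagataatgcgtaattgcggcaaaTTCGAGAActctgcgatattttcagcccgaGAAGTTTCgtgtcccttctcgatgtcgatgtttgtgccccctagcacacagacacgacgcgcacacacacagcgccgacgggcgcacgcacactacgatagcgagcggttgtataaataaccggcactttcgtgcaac
Hsp26, chr3L:9377428-9377727, minus strand: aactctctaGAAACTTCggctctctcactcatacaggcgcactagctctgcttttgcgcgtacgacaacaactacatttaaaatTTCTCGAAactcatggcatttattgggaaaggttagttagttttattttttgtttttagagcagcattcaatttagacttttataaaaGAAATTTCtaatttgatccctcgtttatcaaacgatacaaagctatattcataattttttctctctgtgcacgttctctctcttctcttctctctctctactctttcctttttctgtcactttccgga
Hsp68, chr3R:24057311-24057610, minus strand: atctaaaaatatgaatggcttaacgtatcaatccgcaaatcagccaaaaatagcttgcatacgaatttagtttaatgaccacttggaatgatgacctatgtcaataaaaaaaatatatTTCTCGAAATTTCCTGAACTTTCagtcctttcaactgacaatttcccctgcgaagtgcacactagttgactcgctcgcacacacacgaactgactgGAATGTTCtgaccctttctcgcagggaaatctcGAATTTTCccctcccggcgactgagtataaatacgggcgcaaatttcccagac
Hsp27, chr3L:9383763-9384062, plus strand: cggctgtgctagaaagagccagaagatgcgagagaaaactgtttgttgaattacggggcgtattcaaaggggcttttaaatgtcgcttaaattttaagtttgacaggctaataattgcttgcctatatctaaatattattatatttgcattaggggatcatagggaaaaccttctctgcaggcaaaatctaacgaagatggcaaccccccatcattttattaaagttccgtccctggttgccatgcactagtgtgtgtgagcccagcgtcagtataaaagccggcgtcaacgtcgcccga
Hsp23 held 2 pairs and Hsp26 held 3. Hsp68 held 6, of which 4 overlap in 1 run. Hsp27 held none in this stretch. Over 19276 distinct coding starts, 15.6% of windows of this length held at least 1 pair, 1.73% at least 2 and 0.192% at least 3. The upstream stretches of the second starts of Hsp22, Hsp26 and Hsp83 overlap annotated exons and are not printed. They held 2 pairs, 3 pairs and 1 pair.

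The TATA box letters TATAAA began 27 bases before the start of Hsp23 and 28 bases before those of Hsp27, Hsp68 and Hsp67Bc. They also began 28 bases before the second starts of Hsp22 and Hsp26, and 30 bases before the second start of Hsp83. These letters were found on either strand in 44.6% of all windows. The GAGA letters GAGAG occurred 9 times, partly overlapping, before Hsp26, 7 times before the second start of Hsp22, once before Hsp23 and once before Hsp27, and were not in the Hsp68 window. On either strand, 32.5% of all windows held them. A Motif 1 consensus of 11 letters, searched on both strands, was within 100 bases of 3.25% of all coding starts and of none of the starts of the 8 genes. No mismatch was allowed, so weaker forms of the motif were not counted. At such a share, having no match is the usual case for a start. A match is a description of the letters and not evidence of binding.

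The lists held 17178 to 18959 peaks in the mock libraries, 13464 to 15232 in the M1BP knockdown and 18005 to 18625 in the Cp190 knockdown. Each peak has a local background, and the lowest value in a library was 39.7 to 41.7 fragments in the mock. It was 29.5 to 35.2 in the M1BP knockdown and 39.1 to 46.4 in the Cp190 knockdown libraries. Total reads are not in the peak lists, so the depth of each library is unknown. Of the 7 hemocyte markers, srp, Pxn and Hml had a peak at a start in all 9 libraries Col4a1, Ppn and He in none and vkg in 5. Of the markers of other cell types, the neuronal elav, the muscle wupA and the epithelial shg had one in all 9, nSyb, brp, Mhc and up in none, and grh and the germ line vas in 1. Both M1BP and Cp190 had a start peak in every library, which does not measure the knockdown, since double-stranded RNA removes the transcript. In bulk libraries, a change in the share of cells that are open and a change within each cell cannot be told apart.

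At least 1 peak lay in the window of 7 of the 8 genes in all 9 libraries, against 8262 of the 13968 coding genes, and 6 of the 8 had a peak within 100 bases of a start in all 9, against 5580 coding genes. The 6 small heat shock genes lie close together on chromosome arm 3L, so the windows of neighbours overlap, except those of Hsp67Ba and Hsp23. Hsp26 and Hsp67Ba are represented by the same strongest peak, which lies at the start of Hsp26, and Hsp67Ba had no peak at its own start in any library. Hsp22 also overlaps CG4456, a gene read from the same stretch and listed here with the other small heat shock genes, and shares its peak. The Hsp68 window reaches the start of SMC1, a cohesin subunit.

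The percentile of a gene is the rank of the -log10 q value of its strongest peak within the list of its own library, where 100 is the most significant peak. In the mock libraries Hsp83 stood highest, with 92.9, 92.8 and 93.4. Hsp22 followed at 80.2, 82.7 and 83.0. Hsp68 gave 75.8, 76.0 and 73.0, Hsp26 gave 73.6, 73.0 and 75.9, and Hsp23 gave 78.8, 66.9 and 73.4, so these 3 overlapped and had no order. Hsp27 lay between 63.2 and 68.3, which overlaps the lowest mock library of Hsp23. Hsp67Bc was lowest, at 44.8, 18.9 and 28.5, from a peak that lies 234 bases from the start of its neighbour Fdx1, a ferredoxin gene.

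**Figure D1:**
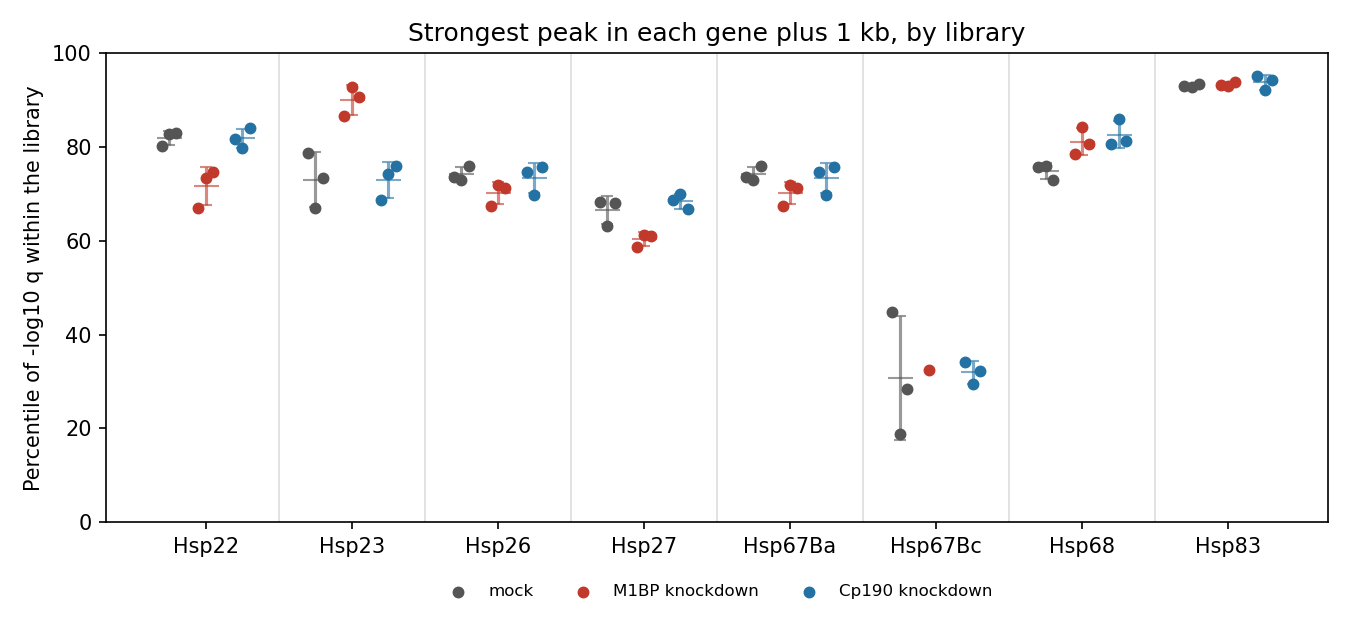
Percentile of the strongest peak in each gene plus 1 kb, on a scale of 0 to 100 within each library. Points are libraries, horizontal marks are means and bars are SDs of 3 libraries, with no mean for Hsp67Bc in the M1BP knockdown, where 1 library had a peak. Hsp23 rises from 66.9 to 78.8 in the mock to 86.6 to 92.9 in the M1BP knockdown, and Hsp68 is higher in both knockdowns.

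The first comparison asked how accessibility at these genes changed when M1BP was depleted. Hsp23 and Hsp68 gained rank in every M1BP knockdown library, Hsp22 lost rank, and the peaks over Hsp26 and Hsp27 lost most of the parts inside the genes. The summit counts of Hsp23, Hsp27, Hsp68 and Hsp83 rose relative to the median gene. Percentiles were higher in all 3 M1BP knockdown libraries than in all 3 mock libraries for 2 of the 7 genes, Hsp23 and Hsp68, against 13.3% of 8262 coding genes. They were lower for 4 of the 7, Hsp22, Hsp26, Hsp27 and Hsp67Ba, against 54.9%, a share near the background. With the 13464 strongest peaks of every library, the differences of Hsp26 and Hsp67Ba turned to 2.64 and that of Hsp27 to 2.16, so the fall in rank of these 3 depends on the shorter lists of the M1BP knockdown. Hsp26 and Hsp67Ba are the same peak here. For groups of 3 against 3, a two-sided exact permutation test cannot give a p below 0.1, and each of these differences gave that value.

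The covered length is the number of bases of a window that lie in peaks. It was greater in all 3 M1BP knockdown libraries for 1 of the 7 genes, Hsp23, against 7.88% of coding genes, and smaller for 4, Hsp26, Hsp27, Hsp67Ba and Hsp68, against 54%. The edges of the strongest peak at a start were measured as distances from that start in the direction of the gene, a measure added after the widths had been seen. It could be taken for 6 of the genes and for 5569 coding genes in all. The upstream edge lay farther upstream in all 3 M1BP knockdown libraries for 5 of the 6, Hsp22, Hsp23, Hsp26, Hsp68 and Hsp83, against 29.7% of coding genes, and less far for 0 of the 6, against 18.6%. The downstream edge lay less far downstream for Hsp26 and Hsp27, 2 of the 6, against 45.9%, and farther for Hsp22, Hsp23 and Hsp68, 3 of the 6, against 13.4%. Over the 5569 genes, the median change in the M1BP knockdown was 4 bases outward for the upstream edge and -50 bases for the downstream edge.

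The number of fragments over the summit was recovered as a whole number from each peak's fold enrichment and p value, and its log2 was compared by limma after each library was centred on its median gene. In the M1BP knockdown, 4 of the 7 genes were higher at an adjusted p under 0.05, against 31.7% of 8262 coding genes, and 0 of the 7 were lower, against 25.8%. Their median log2 change was 0.24, and that of all genes was 0.02. Without the centring the median of all genes moved to -0.20, and then Hsp23 was called higher and Hsp22 lower, with 14.3% of all genes higher and 45.3% lower. These values are therefore relative to the median gene.

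**Figure D2:**
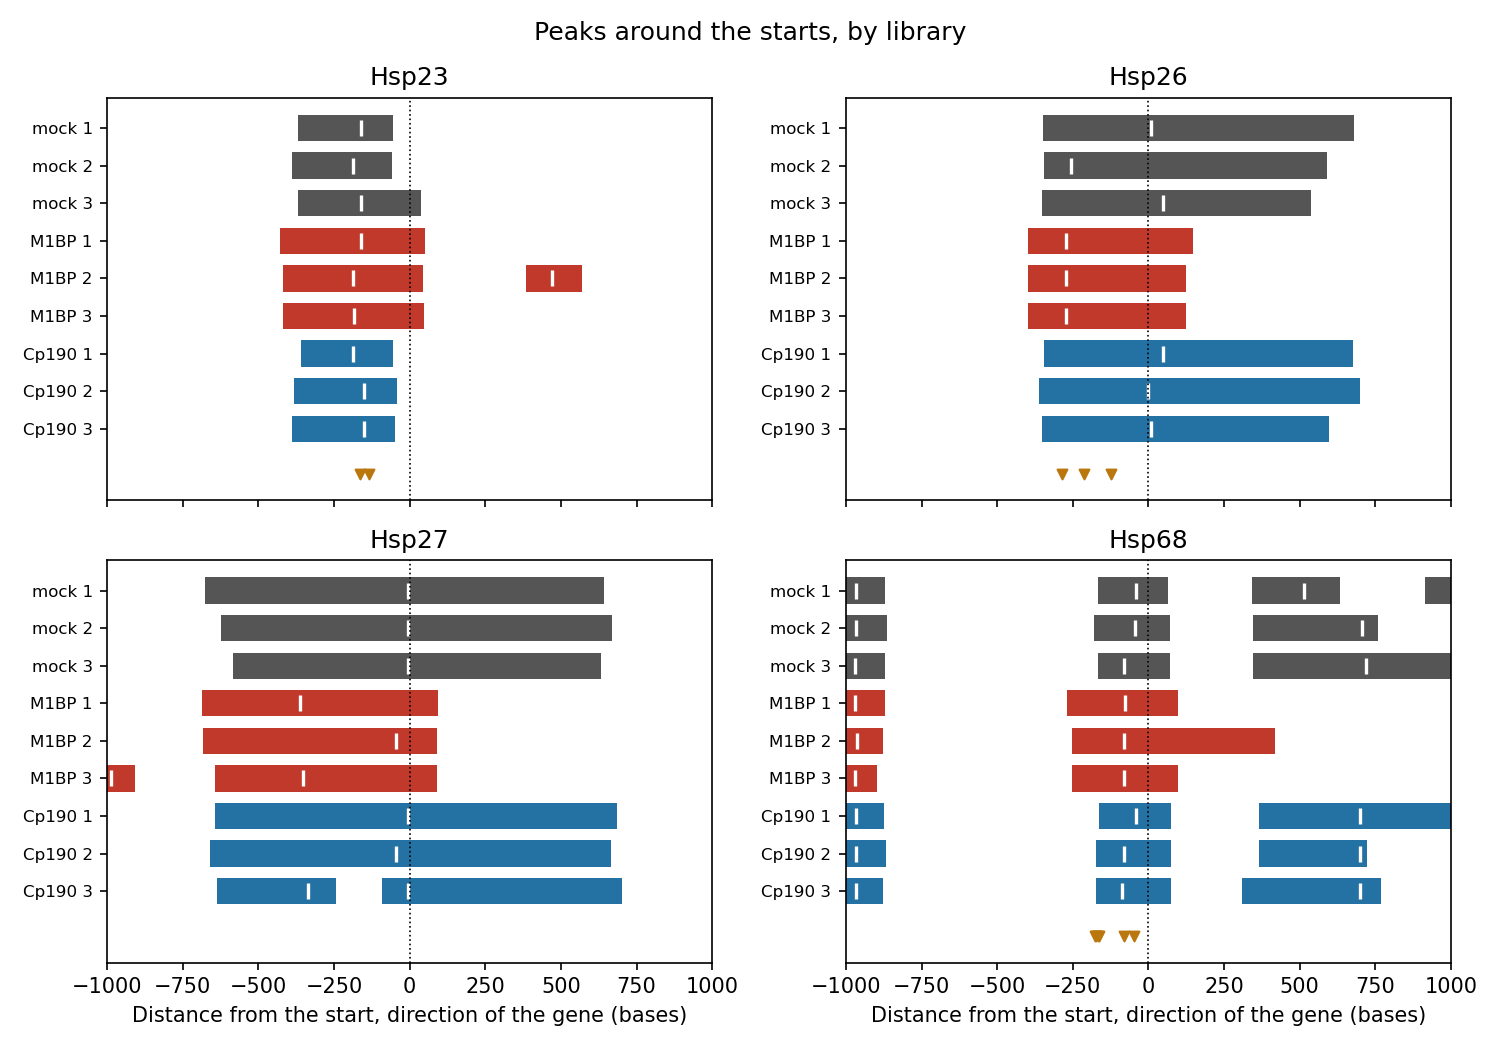
Peaks within 1000 bases of the starts of Hsp23, Hsp26, Hsp27 and Hsp68, clipped at the ends of the axis. Each bar is a peak of 1 library (grey mock, red M1BP knockdown, blue Cp190 knockdown), white ticks are summits, orange triangles are pairs of heat shock repeats within 300 bases upstream and the dotted line is the start; the downstream edge of the Hsp26 peak lies 537 to 679 bases inside the gene in the mock and 123 to 146 in the M1BP knockdown.

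Hsp23, a small heat shock protein of the cytosol, had 291, 250 and 280 summit fragments in the mock libraries and 410, 500 and 414 in the M1BP knockdown. All 3 knockdown libraries were above all 3 mock libraries. The peak was 1.87-fold higher relative to the median gene (log2 0.90, SE 0.11, n = 3 against 3, limma, Benjamini-Hochberg adjusted p = 2.73e-05). Its percentile was 86.6, 92.9 and 90.7 in the M1BP knockdown, a mean of 90.1 ± 3.19 (SD, n = 3) against 73.0 ± 5.95 in the mock. Its local background was 65.6 to 79.2 fragments against 78.1 to 84.4 in the mock, and the fold enrichment over it was 5.96 to 6.25 against 2.97 to 3.69. Fold enrichment was also higher across the M1BP knockdown lists, with library medians of 3.12 to 3.85 against 2.62 to 2.65 in the mock.

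The Hsp23 peak also widened. Its width was 312, 331 and 404 bases in the mock and 479, 462 and 464 in the M1BP knockdown. It reached 368 to 389 bases upstream of the start in the mock and 418 to 428 in the knockdown. The downstream edge stopped 57 and 59 bases before the start in 2 mock libraries, lay 35 bases past it in mock 3, and lay 43 to 50 bases past it in the 3 knockdown libraries. The summits lay 160 to 186 bases before the start in both groups. A heat shock pair begins 168 bases before the start, within that range, but no summit of either group fell on the pair. The covered length of its window rose from 657 to 692 bases in the mock to 868 to 1066, of which the part shared with the neighbouring Hsp27 peak belongs to both genes. It also counts separate weaker peaks found in 1 library each, of 184 bases in M1BP knockdown 2 and 256 bases in M1BP knockdown 3.

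Hsp22, a small heat shock protein of mitochondria, has an annotated second start, and its peak in all 9 libraries lay just before that start. The summit counts were 283, 304 and 318 in the mock and 228, 269 and 236 in the M1BP knockdown. Relative to the median gene this was a log2 change of -0.09 (SE 0.07, limma adjusted p = 0.321), which did not pass the test. The percentile was 66.9, 73.4 and 74.6 against 80.2 to 83.0. Fold enrichment over the local background was 4.62 to 4.82 against 3.96 to 4.06 in the mock. The library medians of fold enrichment were also higher, at 3.12 to 3.85 against 2.62 to 2.65 in the mock. The width was 406 to 410 bases, above the 334 to 385 of the mock, and the upstream edge moved from 384 to 391 bases before the start to 409 to 411. Its downstream edge was 7 to 55 bases before that start in the mock and 1 to 5 in the knockdown. At the first start, a weaker peak was called only in M1BP knockdown 2 and Cp190 knockdown 3.

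Hsp26, another small heat shock protein of the cytosol, showed a shorter peak with about the same summit count. The peak spanned 1027, 938 and 891 bases in the mock and 545, 523 and 524 in the M1BP knockdown. The groups did not overlap, with means of 952 ± 69.1 and 530.7 ± 12.4 bases (SD, n = 3 each). Distances were taken from its first annotated start, chr3L:9377427, and not from its second, chr3L:9377375. The loss was on the side of the gene, where the edge went from 537 to 679 bases past the start to 123 to 146. On the other side the edge moved outward, from 346 to 353 bases to 398 to 399. The summit was 271 bases upstream in all 3 knockdown libraries, and within 49 bases past the start in mock 1 and mock 3 but 255 bases upstream in mock 2. Summit counts were 279, 285 and 309 in the mock and 272, 309 and 263 in the knockdown, a log2 change of 0.17 (SE 0.07, limma adjusted p = 0.0616) relative to the median gene. Over the start windows alone the value was 0.19 (adjusted p = 0.0373).

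Hsp27, a small heat shock protein found in the nucleus, changed in the same way. The peak spanned 1318, 1293 and 1216 bases in the mock and 781, 774 and 734 in the M1BP knockdown. Its downstream edge went from 630 to 669 bases inside the gene to 90 to 94, while the upstream edge, at 585 to 677 bases in the mock and 643 to 686 in the knockdown, overlapped between the groups. The summit lay 5 bases before the start in all 3 mock libraries, and 364, 45 and 353 bases before it in the knockdown. The summit counts overlapped, with 206, 196 and 216 in the mock and 207, 228 and 193 in the knockdown. Relative to the median gene they rose 1.18-fold (log2 0.24, SE 0.06, limma adjusted p = 0.00622). The fold enrichment over the local background was 3.57 to 4.08 in the knockdown and 3.16 to 3.45 in the mock. Centred on the median gene, its log2 change was -0.13 (limma adjusted p = 0.102).

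Hsp67Bc, a small heat shock protein known in Drosophila for a role in autophagy, had the only window that lost its peaks. The peak near Fdx1 was present in all 3 mock and all 3 Cp190 knockdown libraries, and of the M1BP knockdown libraries only in the second. Summit counts in the mock were 146, 124 and 134. At its own start a peak was called only in M1BP knockdown 2 and Cp190 knockdown 3, the same peak that lies at the first start of Hsp22. Having no peak in 2 libraries, the gene did not enter the limma fit. Of 25489 merged regions, 14078 had a peak in all 3 mock libraries, and 22.5% of these had one in at most 1 M1BP knockdown library, as this peak did.

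**Figure D3:**
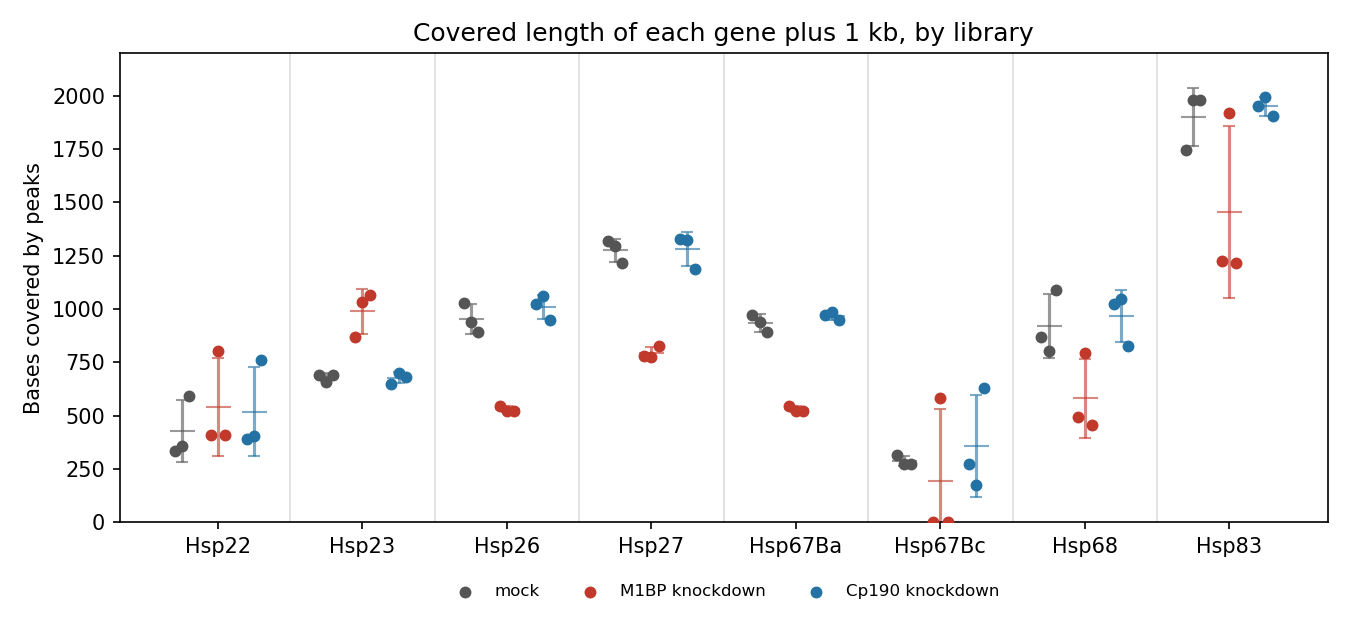
Bases covered by peaks in each gene plus 1 kb. Points are libraries, horizontal marks are means and bars are SDs of 3 libraries; Hsp26 goes from 891 to 1027 bases in the mock to 523 to 545 in the M1BP knockdown, and Hsp27 from 1216 to 1318 to 774 to 827.

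Hsp68, the inducible Hsp70 family member, rose at its promoter and lost the weak peaks inside the gene. Its percentile was 75.8, 76.0 and 73.0 in the mock and 78.6, 84.1 and 80.6 in the M1BP knockdown. The promoter peak was 231, 253 and 237 bases wide in the mock and 367, 673 and 352 in the knockdown, and its upstream edge went from 166 to 180 bases to 253 to 270 before the start. In the knockdown it therefore covered the whole run of 4 overlapping heat shock pairs, which begins 182 bases upstream and was covered only in part in the mock. Summit counts were 245, 258 and 247 in the mock and 263, 311 and 253 in the knockdown, a 1.28-fold rise relative to the median gene (log2 0.35, SE 0.08, limma adjusted p = 0.00154). Its local background was 37.8 to 47.8 fragments in the knockdown and 63.2 to 69.5 in the mock.

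Separate peaks inside Hsp68 were called in all 3 mock libraries, with percentiles of 9.53 to 21.7, and in none of the M1BP knockdown libraries. The promoter peak of M1BP knockdown 2 did reach 418 bases into the gene. The M1BP knockdown lists were shorter, with 13464 to 15232 peaks against 17178 to 18959 in the mock. Of 14078 merged regions with a peak in all 3 mock libraries, 2107 had none in the M1BP knockdown. The share among weak peaks alone was not taken. The covered length of the window was 871, 803 and 1088 bases in the mock and 496, 795 and 454 in the knockdown. With peaks of -log10 q of at least 20 only, the mean covered length was 210 bases greater in the knockdown, the opposite direction. The neighbouring peak at the start of SMC1 had 203, 224 and 234 summit fragments in the mock and 130, 160 and 125 in the M1BP knockdown, and 240, 253 and 235 in the Cp190 knockdown.

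Hsp83 was among the most significant peaks of every library. Its percentile in the M1BP knockdown was 93.2, 93.0 and 93.7 against 92.9, 92.8 and 93.4 in the mock, and the groups overlapped (mean difference 0.258, exact permutation p = 0.5). The summit lay at the same base in all 9 libraries, chr3L:3193168. That is 199 bases past the first annotated start and upstream of the second, chr3L:3193216. Summit counts were 448, 438 and 474 in the mock and 519, 513 and 473 in the M1BP knockdown, a 1.29-fold rise relative to the median gene (log2 0.36, SE 0.07, limma adjusted p = 0.000597). Under quantile normalization the log2 change was 0.09 (adjusted p = 0.244), so this call depends on the scaling.

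Near the end of Hsp83, chr3L:3197127-3197410 held a peak in all 3 M1BP knockdown and all 3 Cp190 knockdown libraries and in no mock library. It lies within CG14966, 221 bases from that gene's start, and was singled out after its values were seen. Its summit counts were 174, 222 and 163 in the M1BP knockdown and 263, 249 and 243 in the Cp190 knockdown, and its percentiles 25.2 to 40.1. This pattern occurred at 40 of 25489 regions, or 0.157%. Absence of a peak means that the q value limit was not reached, not that no fragments were there.

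The second comparison asked the same of Cp190. Hsp68 gained rank, and no gene was called on summit counts. Percentiles were higher in all 3 Cp190 knockdown libraries than in all 3 mock libraries for 1 of the 7 genes, Hsp68, against 10.2% of coding genes, and lower for 0 of the 7, against 7.72%. Covered length was greater for 0 of the 7, against 15.5%, and smaller for 0 of the 7, against 5.77%. The percentile count was 2 without Cp190 knockdown 2 or without Cp190 knockdown 3, and the count for covered length was 2 without mock 1 and 1 without mock 3 or without Cp190 knockdown 3. The upstream edge was farther upstream for 1 of the 6 genes, Hsp22, against 8.06%, and less far for 0, against 4.26%. The downstream edge was farther downstream for 2, Hsp22 and Hsp68, against 9.73%, and less far for 0, against 3.12%.

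By limma, 0 of the 7 genes were higher in the Cp190 knockdown, against 0.29% of coding genes, and 0 were lower, against 3.57%. At an unadjusted p under 0.05 there was 1, Hsp68. Its summit counts were 320, 395 and 322 against 245, 258 and 247 in the mock, all above the mock, with a log2 change of 0.26 relative to the median gene (SE 0.08, adjusted p = 0.0968). Its percentile was 80.7, 85.9 and 81.2, a mean of 82.6 ± 2.86 against 74.9 ± 1.68 (SD, n = 3 each, exact permutation p = 0.1), and its width, 239 to 248 bases, lay within the 231 to 253 of the mock. Without the centring, the median of all genes moved to 0.21, and Hsp68 (log2 0.46, adjusted p = 0.00965) and Hsp83 (0.26, adjusted p = 0.0496) were called higher, as were 19.7% of all genes, with 2.24% lower.

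In the Cp190 knockdown the peaks over Hsp26 and Hsp27 kept their parts inside the genes, with downstream edges at 596 to 699 and 664 to 702 bases. Hsp26 peaks spanned 1022, 1061 and 949 bases and those of Hsp27 1327 and 1324, with 2 separate peaks of 796 and 393 bases in Cp190 knockdown 3. At Hsp23 the peak had 281, 343 and 329 summit fragments and percentiles of 67.5, 74.2 and 75.8, which overlapped the mock. In Cp190 knockdown 1 the strongest peak in the Hsp23 window was that of Hsp27, with 237 fragments. Over the start windows alone the Hsp23 log2 change was 0.00256 (adjusted p = 0.998), and over the whole window -0.07 (SE 0.11, 95% interval -0.31 to 0.17, adjusted p = 0.902).

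The knockdowns were compared with each other in the same fit. In the M1BP knockdown 3 of the 7 genes were higher than in the Cp190 knockdown, against 31.8% of coding genes, and 0 were lower, against 25%. Hsp23 differed by 0.97 on the log2 scale (SE 0.11, adjusted p = 1.58e-05) and Hsp83 by 0.30 (SE 0.07, adjusted p = 0.0023). The Hsp23 value takes the Hsp27 peak for Cp190 knockdown 1. Over the start windows alone the Hsp23 difference was 0.92 (SE 0.08, limma adjusted p = 9.66e-07). Hsp27 differed by 0.17 (SE 0.06, adjusted p = 0.0322), a call lost when any of 4 single libraries was left out, M1BP knockdown 1 or 2 or Cp190 knockdown 1 or 3 (adjusted p 0.0593 to 0.0833). Hsp68 did not pass, with a difference of 0.09 and an interval of -0.07 to 0.25. Without the centring, only Hsp23 stayed higher, and Hsp22, Hsp26, Hsp27, Hsp67Ba and Hsp68 were called lower, where 7.2% of all genes were higher and 66.3% lower.

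**Figure D4:**
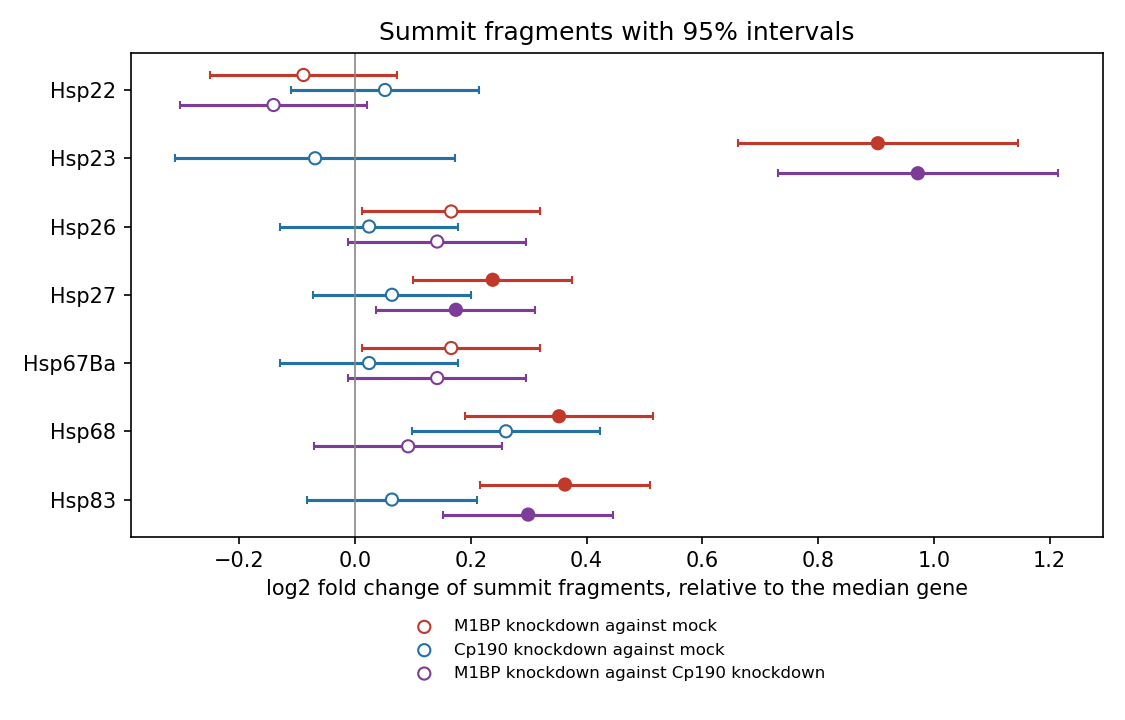
Log2 fold change of summit fragments for the 7 genes tested, relative to the median gene, in 3 contrasts. Points are limma estimates, filled where the adjusted p is under 0.05, and bars are 95% intervals. Hsp23 stands at 0.90 against the mock and 0.97 against the Cp190 knockdown, and Hsp26 and Hsp67Ba are the same peak. In Cp190 knockdown 1 the peak used for Hsp23 is that of Hsp27.

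Other genes of the heat shock system were taken from lists. Of 6 genes listed as other small heat shock genes, 2, CG14207 and CG4456, had a peak in all 9 libraries. That of CG4456 is the Hsp22 peak. In the same list 3 genes, CG7409, CG13133 and l(2)efl, had none in any. CG14207 was the 1 gene of this list called, higher in the M1BP knockdown (log2 0.36, SE 0.07, limma adjusted p = 0.000654). Of 6 Hsp70 copies, Hsp70Bb, Hsp70Bbb and Hsp70Bc had no peak in any library, and only Hsp70Ba had a start peak in all 9. The copies are nearly identical and the authors kept only uniquely placed fragments, so a missing peak there says nothing of accessibility. Hsp70Aa (log2 -0.61, adjusted p = 0.000191) and Hsp70Ab (-0.80, adjusted p = 0.000132) were lower in the M1BP knockdown. Their peaks did not reach within 100 bases of their own starts in any library.

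Among 12 constitutive chaperones, 7 had a peak in all 9 libraries, and 5 were called higher and 1 lower in the M1BP knockdown, where 31.7% of all genes tested were higher and 25.8% lower. The list median was 0.26. The strongest peak of a window need not lie at the start of the gene, and within 100 bases of the starts, a check added after the values were seen, 3 of the 7 were higher and 1 lower, with a median of 0.05, against 31.1% and 26.9% of 5580 genes. Hsp110, an exchange factor for Hsp70, was higher by 0.55 on the log2 scale (SE 0.07, limma adjusted p = 4e-05), Hsc70-3, the chaperone of the endoplasmic reticulum, by 0.46 (SE 0.07, adjusted p = 1e-04) and Hsc70-5, the mitochondrial Hsp70, by 0.20, and each was also called higher at its start. Hsp60A, the mitochondrial chaperonin, fell by 0.24 (SE 0.07, adjusted p = 0.0119) and was also called lower there. Trap1, the mitochondrial Hsp90, was higher by 0.42 over its window, but at its start the change was -0.12 (adjusted p = 0.164). Hsc70-4, the main cytosolic Hsp70, was higher by 0.26 over its window and by 0.05 (adjusted p = 0.583) at its start, which did not pass the test.

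Of 10 co-chaperones, all with a peak in all 9 libraries, 3 were higher and 2 lower, shares near those of all genes, with a median of 0.03. Within 100 bases of the starts 4 were higher and 1 lower, with a median of -0.01, against 31.1% and 26.9% of 5580 genes. DnaJ-1 was higher by 0.41 (limma adjusted p = 0.00176) at its start and by 0.20 (adjusted p = 0.0939) over its window, which did not pass the test. Droj2, a J-domain protein, was higher by 0.47 and Cdc37, which hands kinases to Hsp90, by 0.46, and STUB1, a ubiquitin ligase, fell by 0.57, each with a call in the same direction at its start. Stip1, which joins Hsp70 and Hsp90, was higher by 0.39 over its window and by 0.00634 (limma adjusted p = 0.941) at its start. CG1416 fell by 0.34 over its window and was higher by 0.26 (adjusted p = 0.032) at its start.

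Both factors of the heat shock promoters were called in the M1BP knockdown, in opposite directions. Trl, the gene of GAGA factor, was higher by 0.78 (SE 0.09, limma adjusted p = 1.23e-05) over its window, and by 0.57 at its starts. Hsf, the heat shock factor gene, fell by 0.37 (SE 0.08, adjusted p = 0.00179) over its window. Hsf had a start peak in only 8 of the 9 libraries, so it was not tested at its start. In the Cp190 knockdown the only gene of these lists called was p23, an Hsp90 co-chaperone, which fell by 0.42 (SE 0.06, adjusted p = 0.00131). These values are accessibility of the strongest peak in each window, not expression.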

How the data were processed

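ATAC-seq was deposited as 1 peak list per library for 3 mock, 3 M1BP knockdown and 3 Cp190 knockdown samples, which the study's methods call biological replicates. The authors trimmed reads with cutadapt 1.8.1, aligned them to dm6 with Bowtie2 2.3.5, kept uniquely placed proper pairs with SAMtools 1.9, removed duplicates with Picard and called peaks in each library alone, without an input control, with MACS2 2.2.5. A shift for Tn5 is not given in the sources used here. Without a control, each peak is judged against its own library.

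The deposited lists give a display score, a ratio (fold enrichment over local background) and the -log10 of p and q; the authors' summit offsets were used to place summits. Fragments over each summit were recovered from the ratio and p, and came out whole within 0.05 for 100% of 153300 peaks. Every peak lay inside the chromosome lengths of the RefSeq dm6 sequence. Genes came from the Ensembl annotation of the same build.

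Windows were the gene plus 1000 bases, or 100 bases each side of its starts. Log2 summit fragments, with no pseudocount, were tested by limma 3.58.1 in R 4.3.3 on all 9 libraries, with Benjamini-Hochberg adjustment over 8262 coding genes that had a peak in all 9. Percentiles and covered lengths were tested by two-sided exact permutation in Python 3.11.15. The limma step was tested on simulated data. The edges were taken at the start with a peak in most libraries, the first such start where tied. Neighbouring genes with other values were named if they share a peak with a member, were called or had no peak. The 8 genes and the lists were chosen with earlier results of these data known. The marker nos is not reported here.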

Additional observations from a re-analysis of the deposited data

How the results depend on the processing

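The numbers shared by the samples did not pair them: same-numbered deviations correlated at 0.134, 0.12 and -0.013 between mock and M1BP knockdown and at -0.262, -0.152 and 0.0265 between mock and Cp190 knockdown. With a replicate block, the counts of genes were 7 and 1 for percentile in the M1BP and Cp190 knockdowns, 6 and 1 for covered length, and 4, 0 and, between the knockdowns, 2 for summit fragments, against 6 and 1, 5 and 0, and 4, 0 and 3 without it.

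Leaving out 1 library at a time gave 6 to 7 and 1 to 2 genes for percentile, 5 to 6 and 0 to 2 for covered length, and 4, 0 and 2 to 3 for summit fragments. Covered length in the M1BP knockdown gave 3 genes over gene bodies only. In the Cp190 knockdown it gave 1 gene with peaks of -log10 q of at least 20 and 1 with the same number of peaks per library. Without centring, the genes called on summit fragments were 2 for M1BP (14.3% of all genes higher, 45.3% lower), 2 for Cp190 (19.7% and 2.24%) and 6 between the knockdowns (7.2% and 66.3%).

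Among single genes, the M1BP percentile differences of Hsp26 and Hsp67Ba turned to 2.08 with -log10 q of at least 20 and to 2.64 with equal list lengths, and that of Hsp27 to 1.04 and 2.16. The covered length of Hsp68 turned to 210 bases under both. Without centring, the M1BP log2 change of Hsp26 and Hsp67Ba was -0.0509, the Cp190 one of Hsp23 was 0.131, and, between the knockdowns, those of Hsp68, Hsp27, Hsp26 (with Hsp67Ba) and Hsp83 were -0.325, -0.243, -0.275 and -0.118. By log2 fold enrichment centred on the median gene, Hsp27 was -0.126 for M1BP, -0.0204 for Cp190 and -0.106 between the knockdowns. By the same measure for Cp190, Hsp26 and Hsp67Ba were -0.0852 and Hsp22 -0.0554. Over start windows, Hsp23 was 0.00256 for Cp190. With single libraries left out, the Cp190 change ranged from -0.0241 to 0.0774 for Hsp26 and Hsp67Ba, from -0.167 to 0.0818 for Hsp23 and from -0.00695 to 0.0927 for Hsp22. The cause was not tested. In groups of 3 the exact permutation test cannot give a p below 0.1, and the depth of the libraries is unknown.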
